A study of Mus musculus with 10 samples.

Results

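Matrix proteases and their inhibitors are described here as 51 gene rows of the 24470 in the count table: every row whose symbol belongs to the matrix metalloproteinases (Mmp, 23 genes), their tissue inhibitors (Timp, 4), the ADAMTS proteases (Adamts, 19) or the ADAMTS-like proteins (Adamtsl, 5). Members were found by symbol, with no measured value in the rule. They were measured in cultured testes of C57BL/6 mouse embryos at E12.5. From each of 5 embryos, 1 gonad with its mesonephros was cultured for 48 h with 75 µM GPI (an inhibitor of glycogen phosphorylase), and the other for 48 h with the vehicle, DMSO, alone. RNA was taken from the gonad after the mesonephros had been cut away, which gave 10 libraries, 5 of each treatment. As models, these gonads were explants outside the body, the inhibitor was in the medium and not directed at a cell type, and a bulk library cannot tell fewer cells of a type from less RNA per cell.

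MMPs are zinc-dependent enzymes that are made as inactive precursors and cut collagens, laminins and other matrix proteins; TIMPs bind their active sites and stop them. ADAMTS enzymes are secreted relatives that cut versican and aggrecan, trim procollagens or act on microfibrils, while ADAMTS-like proteins share their binding domains but lack the protease. In the fetal testis, Sertoli cells and germ cells are enclosed in cords by a basement membrane, and vessels grow between the cords, so that matrix is laid down and cut in the same days.

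Of the 51 genes, 34 passed the filter on low counts and were tested, and 17 were set aside, 4 of them with no count in any library. With GPI, 3 of the 34 were called higher and 7 lower at an FDR of 0.05 with edgeR's quasi-likelihood test, paired by embryo. Over all 13941 tested genes, 11.1% were called higher and 11.9% lower, so that the members' share lay near the background for higher genes and above it for lower ones. Members called lower were Adamts4, Adamts1, Adamts12, Adamtsl2, Timp3, Mmp2 and Mmp14. Those called higher were Mmp11, Mmp23 and Adamts17. The median log2 fold change was -0.18 over the tested members and 0.02 over all tested genes. All 10 called members moved the same way in 5 of 5 embryos, and the groups did not overlap in 9 of them. Counting members not called as well, the groups did not overlap in 11 of 34, against 16.1% of all tested genes.

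The number called higher depended on single embryos. Without embryo M1 it was 5, with Mmp19 and Adamts16 added, and without M3 it was 1, since Mmp23 and Adamts17 no longer passed. Over all genes, 1544 were called higher with 5 embryos, 969 without M3 and 1024 without M4. The balance of the background depended on scaling: with total counts only, 1244 genes were called higher and 1968 lower, against 1544 and 1654. The number of members called lower stayed between 7 and 9 under the 10 alternative settings tried. Without M3 it included Mmp8 and without M4 Mmp9. Both passed the filter there through their vehicle counts, so that these calls are no support for a stable number.

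Depth was similar in both groups. Vehicle libraries held 10203679 to 15590223 counts, and GPI libraries 11025409 to 15635322. Members together took between 0.17% and 0.184% of the counts of a vehicle library and between 0.145% and 0.156% of those of a GPI library.

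**Figure D1:**
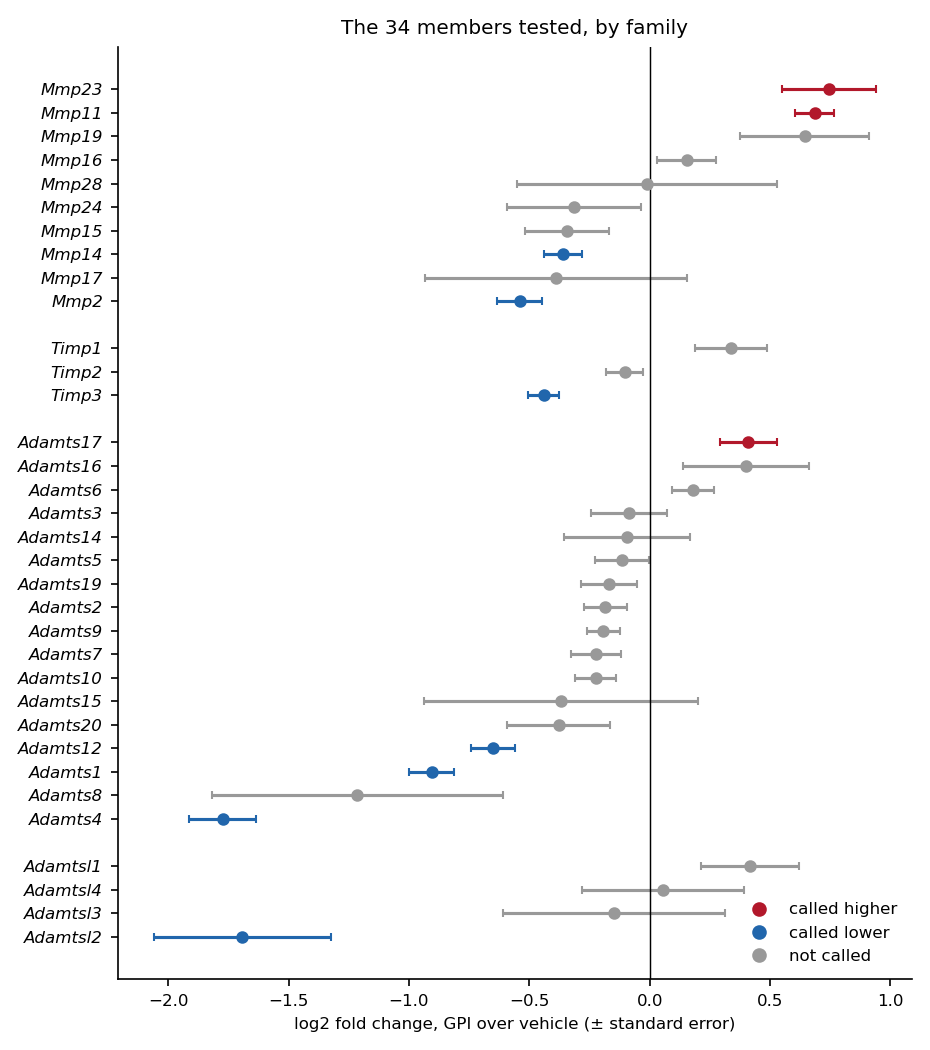
Log2 fold change of GPI over vehicle (x axis) for the 34 tested members, grouped by family; bars are standard errors of the paired fit of 5 embryos, and colours mark members called at an FDR of 0.05. Adamts4 and Adamtsl2 lie farthest to the left, at -1.77 and -1.69, and Mmp23 and Mmp11 farthest to the right, at 0.74 and 0.69.

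Among the inhibitors, Timp3 fell, and Timp1 and Timp2 did not pass the test. TIMP3 stays bound to the matrix and inhibits ADAMTS enzymes and ADAM17 besides MMPs. Timp3 (Entrez Gene 21859, chr10:86300412-86349505, mm10) had 4551, 4224, 4369.5, 4289 and 4124 normalized counts with vehicle in embryos M1 to M5, and 3114, 3184, 3175, 3311 and 3093 with GPI in the same order. Every GPI-treated gonad lay below every vehicle-treated one, and the values within a treatment were close together. The means were 4312 ± 161 with vehicle and 3176 ± 85.1 with GPI (SD, n = 5). The log2 fold change was -0.44 (standard error 0.06, edgeR adjusted p = 0.00019), lower in 5 of 5 embryos. Timp3 lies inside Syn3, which is on the other strand, and the counts were made without regard to strand, so that reads of the shared stretch cannot be told apart. Syn3 itself had 382 ± 108 normalized counts with vehicle and 391 ± 82.5 with GPI (SD, n = 5) and a log2 fold change of 0.06 (edgeR adjusted p = 0.837), higher in 4 of 5 embryos.

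Timp1, an inducible secreted inhibitor of most MMPs, had 98.5, 104, 124, 138 and 97.5 normalized counts with vehicle in M1 to M5 and 135, 120.0, 152, 155 and 145 with GPI. It was higher with GPI in 5 of 5 embryos, but the groups overlapped. Its log2 fold change of 0.34 (standard error 0.15) did not pass (edgeR adjusted p = 0.128). Timp1 lies inside Syn1 on the other strand, and Syn1 was called higher (log2 fold change 0.54, edgeR adjusted p = 0.0153, higher in 5 of 5 embryos). Its part in the Timp1 count was not tested. Timp2, which inhibits MMPs and also takes part in the activation of proMMP2 at the cell surface, had 916, 893, 967, 944 and 988 normalized counts with vehicle and 819, 892, 883, 911 and 876 with GPI. The groups overlapped, with a log2 fold change of -0.10 (standard error 0.08, edgeR adjusted p = 0.381, lower in 5 of 5 embryos). Timp2 shares its strand with the overlapping gene Cep295nl. Timp4 was set aside, with at most 9 counts in a library.

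The gelatinase Mmp2 and its membrane-bound activator Mmp14 both fell. MMP14 (MT1-MMP) cuts collagens at the cell surface and, together with TIMP2, activates proMMP2, which cuts type IV collagen and gelatin. Mmp2 (Entrez Gene 17390, chr8:92827297-92853421) had 1142, 1042, 1289, 1177 and 1326 normalized counts with vehicle in M1 to M5 and 966, 833, 784, 736 and 795 with GPI. The groups did not overlap, and the difference was smallest in M1. On the log2 scale Mmp2 changed by -0.54 (standard error 0.09, edgeR adjusted p = 0.000794), from 1195 ± 115 to 823 ± 87.0 normalized counts (SD, n = 5), and was lower in 5 of 5 embryos. Mmp14 (Entrez Gene 17387, chr14:54431598-54442456) had 2784, 2949.8, 2784, 2765 and 2546 with vehicle and 2523, 2081, 2195, 1855 and 2159.6 with GPI, all normalized counts. Its highest GPI value, again in M1, lay just under its lowest vehicle value. The log2 fold change of Mmp14 was -0.36 (standard error 0.08, edgeR adjusted p = 0.00384, lower in 5 of 5 embryos).

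The other membrane-type enzymes with enough counts, Mmp15, Mmp16, Mmp17 and Mmp24, were not called. Log2 fold changes among them lay between -0.39 for Mmp17 and 0.15 for Mmp16. Summed over the 6 membrane-type genes, normalized counts were 3745 ± 46.0 with vehicle and 3167 ± 159 with GPI (SD, n = 5), and Mmp14 made up 71.3% of the sum over both groups.

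Mmp11, or stromelysin-3, rose with GPI. This enzyme is activated inside the cell by furin-like proteases and is known from stromal cells of remodelling tissue. Mmp11 (Entrez Gene 17385, chr10:75923222-75932502) had 1613, 1456, 1592, 2129 and 1916 normalized counts with vehicle in M1 to M5 and 2426, 2837, 2731, 3346 and 2614 with GPI. Embryo M4 had the highest value in both groups, and the lowest GPI value lay above the highest vehicle value. Mean normalized counts rose from 1741 ± 274 to 2791 ± 346 (SD, n = 5), a log2 fold change of 0.69 (standard error 0.08, edgeR adjusted p = 3.14e-05), and 5 of 5 embryos showed this direction.

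Mmp23, which encodes a membrane-anchored MMP that lacks the usual hemopexin domain, was also called higher, at far lower counts. It had 36.5, 48.9, 55.8, 65.7 and 54.1 normalized counts with vehicle in M1 to M5 and 52.6, 98.9, 107, 100.0 and 82.8 with GPI. The groups overlapped only through M1, whose GPI value of 52.6 lay within the range of the vehicle gonads. Its log2 fold change was 0.74 (standard error 0.20, edgeR adjusted p = 0.0138, higher in 5 of 5 embryos), and without M3 the edgeR adjusted p was 0.0742. Mmp19 was at 0.64 on the log2 scale (standard error 0.27, higher in 4 of 5 embryos) and Mmp28 at -0.01 (standard error 0.54); neither was called, and each overlaps a gene on the other strand.

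**Figure D2:**
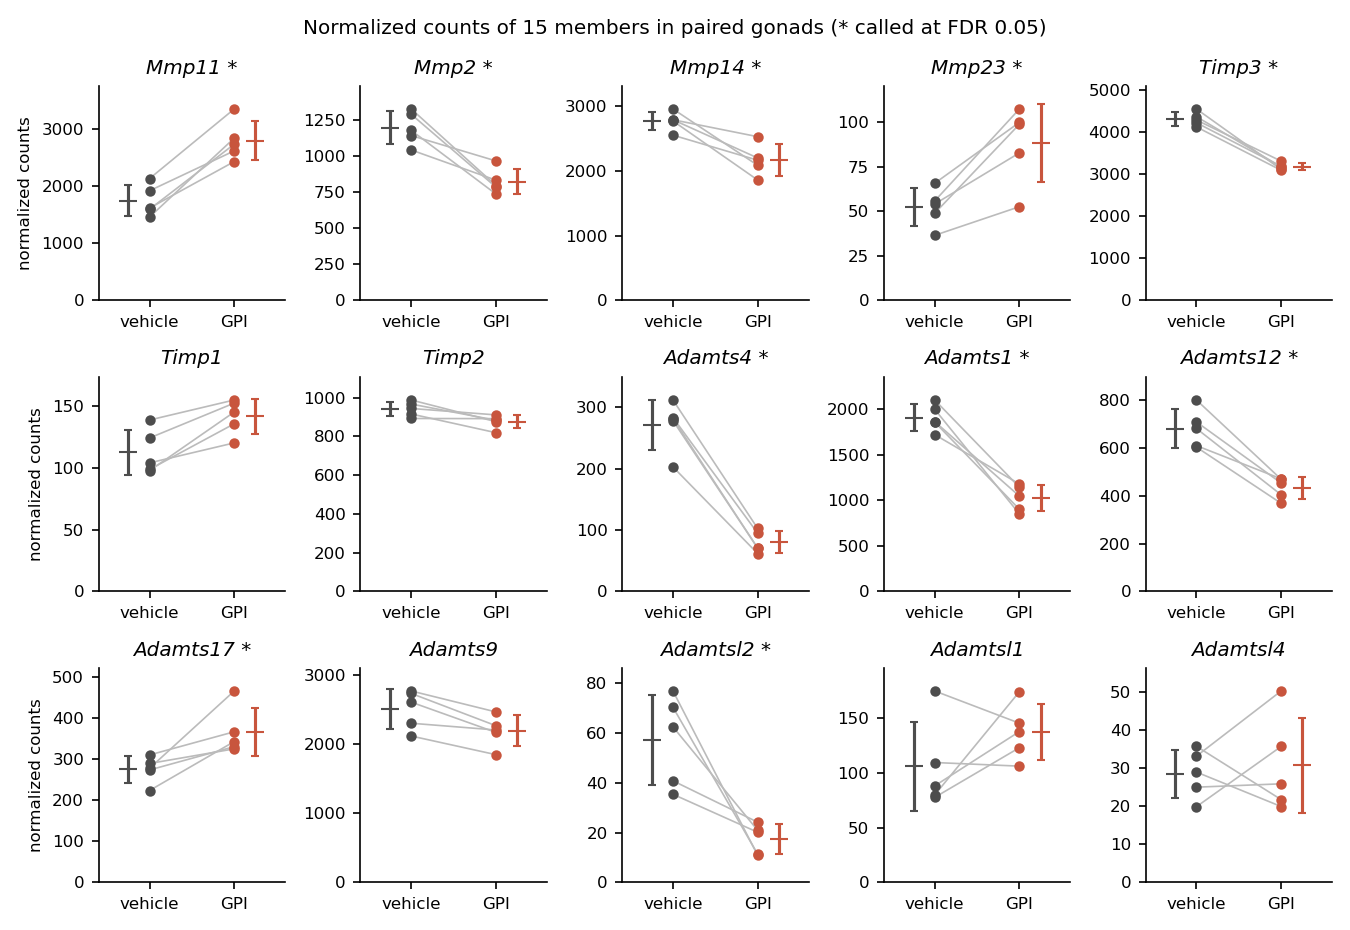
Normalized counts (y axis, from 0) of 15 members in each gonad; grey lines join the 2 gonads of an embryo, short bars with whiskers give the mean and SD of 5 gonads, and an asterisk marks members called at an FDR of 0.05. For Adamts4 all 5 lines fall, from between 203 and 312 with vehicle to between 61.6 and 102 with GPI, and for Mmp11 all 5 rise.

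The ADAMTS enzymes that cut versican and other hyalectans held the members with the smallest p. Of 7 in this group, all tested, 2 were called lower and 0 higher, and at an unadjusted p under 0.05 Adamts9 was lower as well and 0 were higher, as with DESeq2. Over all tested genes, 11.9% were called lower and 11.1% higher. Adamts4 (Entrez Gene 240913, chr1:171250422-171259922), an aggrecanase, had 203, 278, 281, 283 and 312 normalized counts with vehicle in M1 to M5 and 61.6, 70.5, 70.4, 94.7 and 102 with GPI. The highest GPI value was well below the lowest vehicle value. Adamts4 fell from 271 ± 40.7 to 79.9 ± 17.6 normalized counts (SD, n = 5), a log2 fold change of -1.77 (standard error 0.14, edgeR adjusted p = 8.81e-07), lower in 5 of 5 embryos.

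Adamts1 encodes a versican-cutting protease that is also known to inhibit the growth of vessels. Its gene (Entrez Gene 11504, chr16:85793827-85803113) had 2098, 1718, 1861, 1856 and 1996 normalized counts with vehicle in M1 to M5 and 1142, 1177, 1044, 899.5 and 849 with GPI. No GPI value reached the vehicle range. Means of 1906 ± 146 and 1022 ± 145 normalized counts (SD, n = 5) gave a log2 fold change of -0.91 (standard error 0.09, edgeR adjusted p = 9.99e-06), lower in 5 of 5 embryos. Adamts5 lies 55043 bases from Adamts1 on the same strand of chromosome 16 and is the other main aggrecanase. Its log2 fold change was -0.12 (standard error 0.11, edgeR adjusted p = 0.52), lower in 3 of 5 embryos.

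Adamts9, the Adamts gene next to Adamts1 in level per length and one that also acts in the secretory pathway, had 2773, 2305, 2611, 2737 and 2120.3 normalized counts with vehicle and 2469, 2208, 2173, 2269 and 1850.2 with GPI. It was lower with GPI in 5 of 5 embryos, with overlapping groups. Its log2 fold change of -0.19 (standard error 0.07) missed the threshold (edgeR adjusted p = 0.0548), and it passed with DESeq2 (adjusted p = 0.0476), with DESeq2 size factors in edgeR (0.0489), with total counts only (0.0187) and without M2 (0.0295); over the alternatives the adjusted p ran from 0.0187 to 0.184. Adamts8, Adamts15 and Adamts20 had log2 fold changes of -1.21, -0.37 and -0.38, with standard errors of 0.60, 0.57 and 0.21, and were not called. Summed over the 7 genes, normalized counts were 5746, 4891, 5338, 5399 and 4981 with vehicle in M1 to M5 and 4132, 4041, 3844, 3759 and 3287 with GPI, a lower sum with GPI in each embryo.

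The procollagen N-proteinases Adamts2, Adamts3 and Adamts14, which remove the amino-terminal propeptides of fibrillar collagens, gave 0 calls in 3 tests with edgeR, 0 with DESeq2 and 0 at an unadjusted p under 0.05. Their log2 fold changes were -0.18, -0.09 and -0.09, with standard errors of 0.09, 0.16 and 0.26. Adamts2 was the most counted of them, with 718 ± 76.3 normalized counts with vehicle and 632 ± 64.2 with GPI (SD, n = 5).

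Of the 9 remaining Adamts genes, 7 were tested, with 1 called in each direction, near the 11.1% called higher and 11.9% lower of all tested genes. Adamts12, whose product can cut cartilage oligomeric matrix protein, had 801, 709, 609.7, 681 and 603 normalized counts with vehicle in M1 to M5 and 469, 453, 471, 404 and 368 with GPI. The groups did not overlap, and the log2 fold change was -0.65 (standard error 0.09, edgeR adjusted p = 0.000175, lower in 5 of 5 embryos). Adamts17, tied to microfibrils of the connective tissue, had 289, 273, 223, 309.8 and 277 with vehicle and 325, 330.0, 342, 366 and 465 with GPI, all normalized counts. Its groups did not overlap either, M5 stood highest with GPI, and the log2 fold change was 0.41 (standard error 0.12, edgeR adjusted p = 0.0216, higher in 5 of 5 embryos). Without M5 the edgeR adjusted p of Adamts17 was 0.104, and without M3 it was 0.117.

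Adamts10 and Adamts6 are a related pair that act on fibrillin microfibrils. Their groups did not overlap, and neither was called: Adamts10 was at -0.22 on the log2 scale (standard error 0.08) and Adamts6 at 0.18 (standard error 0.09). Adamts10 was lower in 5 of 5 embryos and passed with total counts only (edgeR adjusted p = 0.0399) and without the replicate block (0.0459), over a range of 0.0399 to 0.183 among the alternatives. Adamts7, Adamts16 and Adamts19 were at -0.22, 0.40 and -0.17 on the log2 scale. Over all 24 members tested and not called, log2 fold changes ran from -1.21 in Adamts8 to 0.64 in Mmp19, 7 of them positive and 17 negative, with standard errors from 0.07 to 0.60.

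Adamtsl2, which binds fibrillin and the latent TGF-beta binding protein LTBP1 and has no protease activity, was the ADAMTS-like gene called. Its mean over both groups was under 50 normalized counts, and its values are given because it was called. It had 35.4, 70.4, 62.5, 40.8 and 77.0 normalized counts with vehicle in M1 to M5 and 20.1, 11.3, 20.9, 24.2 and 10.9 with GPI. The groups did not overlap. The log2 fold change was -1.69 (standard error 0.37, edgeR adjusted p = 0.00408, lower in 5 of 5 embryos).

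Over all 10 libraries, the ADAMTS-like genes highest per length were Adamtsl1 and Adamtsl4; with vehicle alone Adamtsl2, at 0.779 ± 0.248, stood above Adamtsl4, at 0.575 ± 0.128 (SD, n = 5). Adamtsl1 had 175, 80.0, 88.2, 109.6 and 77.7 normalized counts with vehicle and 146, 174, 138, 106 and 123 with GPI, with M1 high in the vehicle group. Its log2 fold change was 0.42 (standard error 0.20, edgeR adjusted p = 0.172, higher in 3 of 5 embryos), with 0.24 without M2 and 0.58 without M1. Adamtsl4, known from the fibers that hold the eye lens, had 33.2, 25.1, 29.0, 19.9 and 35.8 with vehicle and 50.4, 25.9, 19.97, 35.8 and 21.8 with GPI, as normalized counts. It differed by 0.06 on the log2 scale (standard error 0.34), less than the spread between replicates, and was at -0.11 without M1 and -0.14 without M4. Adamtsl3 was at -0.15 (standard error 0.46), and Adamtsl5 was set aside.

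Levels of different genes were compared as scaled counts per kilobase of the longest annotated transcript and per 1000000 counts, called level per length. With vehicle the order began with Timp3 at 74.0 ± 2.77, Mmp14 at 69.2 ± 3.60 and Mmp11 at 61.7 ± 9.71 (SD, n = 5). Neighbours in it overlapped in their spread: Timp3 was first in 3 vehicle libraries, Mmp14 in 1 and Mmp11 in 1. With GPI, Mmp11 was first in 5 of 5 libraries, at 98.9 ± 12.2, ahead of Timp3 at 54.5 ± 1.46 and Mmp14 at 54.1 ± 6.03, a pair that did not differ beyond its spread. These 3 genes together held between 48.1% and 51.0% of the summed level of all 51 members with vehicle and between 52.9% and 56.3% with GPI.

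Below them with vehicle stood Adamts1 at 31.6 ± 2.42, Mmp2 at 31.5 ± 3.02, Adamts9 at 25.4 ± 2.88 and Timp2 at 20.6 ± 0.839 in level per length. With GPI the same quantity was 17.0 ± 2.40 for Adamts1, 21.7 ± 2.29 for Mmp2, 22.2 ± 2.26 for Adamts9 and 19.1 ± 0.753 for Timp2. With vehicle, Adamts1 and Mmp2 did not differ beyond their spread. With GPI, no neighbours in the order among Adamts9, Mmp2, Timp2 and Adamts1 did. With the mean transcript length of a gene in place of the longest, the vehicle levels were 158 ± 8.21 for Mmp14, 153 ± 5.74 for Timp3 and 131 ± 20.6 for Mmp11, so that Mmp14 then stood above Timp3, within their spread. With GPI they were 210.1 ± 26.0 for Mmp11, 123 ± 13.8 for Mmp14 and 113 ± 3.03 for Timp3, again with Mmp11 first. By this length Mmp2, at 67.2 ± 6.44 with vehicle, stood above Adamts1, at 58.2 ± 4.45, again within their spread, and above Adamts9, at 48.5 ± 5.51.

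**Figure D3:**
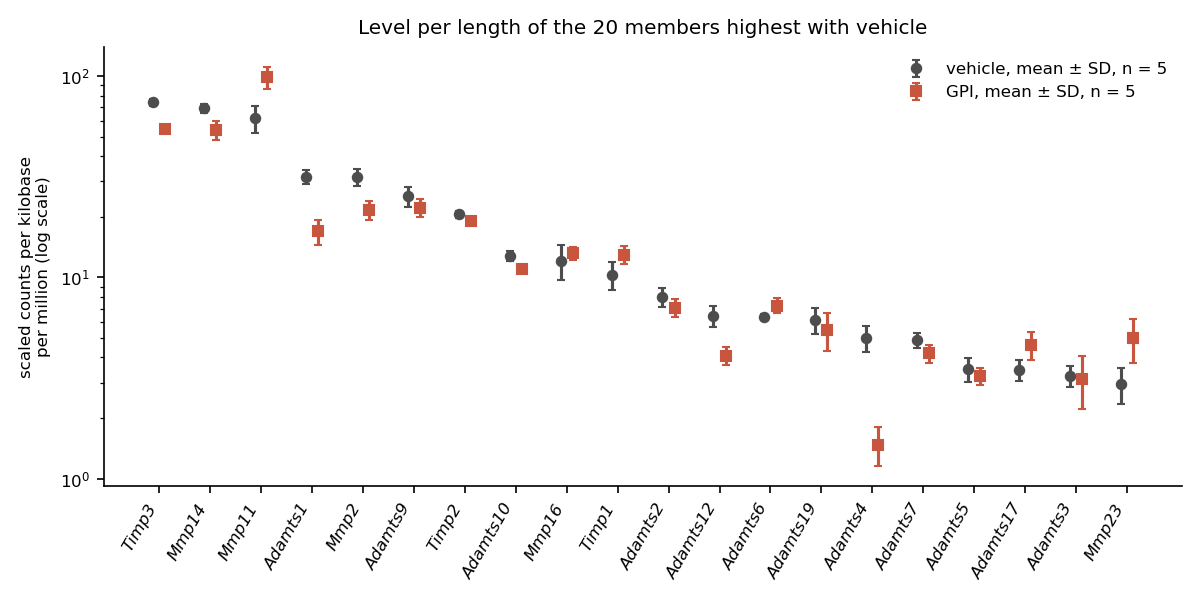
Level per length (y axis, log scale: scaled counts per kilobase of the longest transcript and per 1000000 counts) of the 20 members highest with vehicle, as mean and SD of 5 libraries per treatment. Mmp11 is the single gene of the leading 3 whose GPI mean, 98.9, lies above its vehicle mean, 61.7.

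The makeup of each family shifted with these genes. Mmp11 held between 30.3% and 38.3% of the summed Mmp level per length with vehicle and between 44.4% and 56.4% with GPI. Vehicle libraries gave Mmp14 a share of 33.0% to 43.3% and GPI libraries 22.1% to 32.6%. For Mmp2 the shares were 15.8% to 18.6% and 9.22% to 13.1%. Among the Adamts genes, Adamts1 held 24.1% to 26.8% of the summed level with vehicle and 15.7% to 19.3% with GPI.

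The summed level per length of the Mmp genes was 184 ± 10.6 with vehicle and 198 ± 7.52 with GPI (SD, n = 5). For the Timp genes it was 105 ± 3.21 and 86.7 ± 2.81, with Timp3 holding most of it in every library. The ratio of the Timp sum to the Mmp sum lay between 0.526 and 0.598 in the vehicle libraries and between 0.426 and 0.449 in the GPI libraries. With the mean transcript length it lay between 0.465 and 0.530 with vehicle and between 0.368 and 0.382 with GPI, so that the groups were apart under both lengths. Mmp11 alone made up 61.7 ± 9.71 of the Mmp sum with vehicle and 98.9 ± 12.2 with GPI. Of the Mmp genes next in level per length, Mmp14 and Mmp2 were lower with GPI (69.2 to 54.1 and 31.5 to 21.7). Mmp16 stood at 12.1 with vehicle and 13.2 with GPI. The ratio without Mmp11 was not calculated, so that the separation may rest on this gene. A fall of the Timp genes against the other Mmp genes cannot be read from it. These ratios describe transcripts and say nothing of enzyme activity, which was not measured.

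Mmp8, the neutrophil collagenase, differed between the groups although the filter set it aside; it is named here after its values were seen. Its raw counts were 39, 14, 8, 20 and 85 with vehicle in M1 to M5 and 0, 1, 2, 2 and 0 with GPI. Every vehicle-treated gonad had more than every GPI-treated one. It was called lower, in 5 of 5 embryos, with DESeq2 (log2 fold change -4.67, adjusted p = 1.31e-06), and with edgeR when no filter on low counts was used (-4.52, adjusted p = 4.62e-06). With the filter Mmp8 was tested only without M3 (log2 fold change -5.22, edgeR adjusted p = 0.000541). It passed the filter there through its vehicle counts, so that this value is no support for a difference. Mmp9, the other gelatinase and also a product of neutrophils and macrophages, had raw counts of 16, 11, 11, 3 and 18 with vehicle and 7, 2, 4, 3 and 1 with GPI. Its log2 fold change was -1.78 with edgeR and no filter (adjusted p = 0.115) and -1.84 with DESeq2 (adjusted p = 0.104), neither past the threshold. With the filter it was tested in 1 alternative, without M4, the embryo with equal counts (log2 fold change -2.10, edgeR adjusted p = 0.0368); it passed the filter there through its vehicle counts, so that this value is no support for a difference. It was lower in 4 of 5 embryos by raw counts, with 3 counts on both sides in M4.

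The genes with least RNA sat together in the genome. On chromosome 9 of mm10, 10 Mmp genes lie next to one another between positions 7272514 and 7699585: Mmp13, Mmp12, Mmp1b, Mmp3, Mmp1a, Mmp10, Mmp8, Mmp27, Mmp20 and Mmp7. None of the 10 passed the filter, and 4 (Mmp1a, Mmp1b, Mmp3 and Mmp20) had 0 counts in all 10 libraries. Apart from Mmp8, the highest count of any of them in a library was 7, in Mmp10. Apart from Mmp8, transcripts of these genes were at or near the limit of detection at this depth, and a change in them was not detectable. The other members set aside, Adamts13, Adamts18, Adamtsl5, Mmp9, Mmp21, Mmp25 and Timp4, reached at most 21 counts in a library.

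Promoter letters differed between this cluster and the tested members, a grouping made after the counts were seen. RefSeq windows on GRCm38.p6, from 250 bases before to 50 bases after a gene's start, were found for 36 of the 51 members, 39 windows in all. They were searched on both strands for TGAGTCA, the AP-1 element known from inducible MMP genes (TGACTCA on the other strand), and for TATAAA, the TATA element (TTTATA on the other strand); neither motif contains the other. Of all 32851 windows of this length, 5.20% held the first and 13.6% the second. In the chromosome 9 cluster 7 of 10 genes held both within 1 window and 9 of 10 held TATAAA. Among the 20 tested members with a window, 0 held TGAGTCA and 2 held TATAAA. Those 2 were Adamts1 and Adamtsl2, both called lower. Of the 7 members called lower, 5 had a window. Adamts4 and Mmp2 had none and were not searched.

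Windows are shown from each of these sets: cluster genes with both motifs (Mmp3 at chr9:7445572-7445871, Mmp10 at chr9:7502092-7502391 and Mmp13 at chr9:7272264-7272563, all on the plus strand), tested genes with TATAAA alone (Adamts1 at chr16:85803064-85803363 on the minus strand and Adamtsl2 at chr2:27079129-27079428 on the plus strand), and a tested gene with neither (Mmp11 at chr10:75932453-75932752, minus strand). Each is written 5′ to 3′ along the gene's strand, from RefSeq, GRCm38.p6, with the motifs in capitals.
Mmp3: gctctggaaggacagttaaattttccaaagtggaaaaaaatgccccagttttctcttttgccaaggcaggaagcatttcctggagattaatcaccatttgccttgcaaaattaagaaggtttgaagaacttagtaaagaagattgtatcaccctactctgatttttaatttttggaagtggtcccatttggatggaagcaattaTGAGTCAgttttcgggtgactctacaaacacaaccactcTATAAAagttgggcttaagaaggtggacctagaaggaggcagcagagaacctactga
Mmp10: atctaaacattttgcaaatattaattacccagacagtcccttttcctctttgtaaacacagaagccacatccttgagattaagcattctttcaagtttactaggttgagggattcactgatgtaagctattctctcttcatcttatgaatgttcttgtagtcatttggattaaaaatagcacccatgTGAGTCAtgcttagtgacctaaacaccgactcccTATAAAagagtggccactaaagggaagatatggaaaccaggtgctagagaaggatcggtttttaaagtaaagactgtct
Mmp13: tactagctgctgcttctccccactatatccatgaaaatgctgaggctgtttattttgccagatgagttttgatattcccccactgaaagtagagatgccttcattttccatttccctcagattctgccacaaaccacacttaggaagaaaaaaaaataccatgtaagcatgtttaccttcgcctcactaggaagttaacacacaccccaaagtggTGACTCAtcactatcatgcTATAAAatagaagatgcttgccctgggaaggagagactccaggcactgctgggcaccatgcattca
Adamts1: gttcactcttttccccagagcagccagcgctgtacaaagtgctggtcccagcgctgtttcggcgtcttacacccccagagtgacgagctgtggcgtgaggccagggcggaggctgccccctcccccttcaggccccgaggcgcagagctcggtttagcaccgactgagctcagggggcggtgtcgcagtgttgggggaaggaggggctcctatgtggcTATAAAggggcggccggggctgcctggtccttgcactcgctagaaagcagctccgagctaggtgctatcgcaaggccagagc
Adamtsl2: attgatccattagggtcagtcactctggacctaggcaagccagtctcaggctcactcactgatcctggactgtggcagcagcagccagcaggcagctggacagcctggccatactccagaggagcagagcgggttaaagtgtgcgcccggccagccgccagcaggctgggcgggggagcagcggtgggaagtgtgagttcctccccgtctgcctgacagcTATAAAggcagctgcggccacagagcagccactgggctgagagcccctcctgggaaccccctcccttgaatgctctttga
Mmp11: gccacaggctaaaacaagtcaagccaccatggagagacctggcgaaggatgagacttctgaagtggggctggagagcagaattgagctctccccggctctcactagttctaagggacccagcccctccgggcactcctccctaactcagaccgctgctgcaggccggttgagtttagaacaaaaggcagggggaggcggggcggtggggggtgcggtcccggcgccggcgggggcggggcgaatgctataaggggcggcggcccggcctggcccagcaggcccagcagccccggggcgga

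In Mmp3, Mmp10 and Mmp13 the AP-1 letters began 46, 63 and 35 bases before the annotated start, and TATAAA lay between them and the start. The TATA letters of Adamts1 began 32 bases and those of Adamtsl2 30 bases before the start. Windows of set-aside members had a median GC content of 45.8% (37.7% to 72.0%), and those of tested members 67.0% (55.0% to 80.0%). The low values were those of the cluster, with at most 52.0%, in Mmp7. Set-aside members outside it ran from 53.3% in Timp4 to 72.0% in Adamtsl5. A match describes letters in the window, and binding was not measured.

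The plasminogen system, which makes plasmin, a protease that cuts matrix and activates several proMMPs, had 5 of 9 listed genes tested, 1 called higher and 3 lower. Over all tested genes, 11.1% were called higher and 11.9% lower, and these shares stand beside each list that follows. The lower ones were the urokinase activator Plau (log2 fold change -2.38), the tissue activator Plat (-1.23) and the urokinase receptor Plaur (-3.33). Plaur had 4.05 to 9.47 normalized counts with GPI and passed the filter through its vehicle counts, so that its call is no support for a difference. Plau, for example, had 997, 864, 803, 918 and 865 normalized counts with vehicle in M1 to M5 and 210.4, 217, 153, 115 and 172 with GPI (standard error 0.13, edgeR adjusted p = 3.65e-08, lower in 5 of 5 embryos). The gene called higher, Serpine2, encodes an inhibitor of these activators and was named after its values were seen (log2 fold change 0.93, standard error 0.11, edgeR adjusted p = 2.66e-05, higher in 5 of 5 embryos). Plasminogen itself, Plg, had 0 counts in every library.

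Among 13 tested genes that activate, inhibit or clear MMPs, 2 were called higher and 2 lower, near the 11.1% and 11.9% of all tested genes. Spock1, a testican, had a log2 fold change of 2.81 at low counts, 7.55 ± 5.69 with vehicle and 55.9 ± 28.9 with GPI. It passed the filter through its GPI counts, so that this call is no support for a difference. The general protease inhibitor A2m was at -2.20 and lower in 4 of 5 embryos, with 232, 32.4, 15.2, 25.2 and 36.0 normalized counts with GPI, so that M1 stood high. Reck, a membrane-anchored inhibitor of MMP2, MMP9 and MMP14, was at -0.29 (edgeR adjusted p = 0.0224, lower in 5 of 5 embryos), and it no longer passed without M1, M3, M4 or M5 (edgeR adjusted p from 0.0538 to 0.0685). Without M1, M2, M3 or M4, with DESeq2, with no filter on low counts and without the replicate block, 1 gene of the list was called higher. Without M3, M4 or M5 1 was called lower, against 3 with no filter, without the block or with DESeq2 size factors; with total counts only there were 1 higher and 4 lower.

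The C-proteinase enhancer Pcolce and the procollagen C-proteinase Bmp1 were called lower, 2 of 3 tested genes of the astacin list, with log2 fold changes of -0.37 and -0.39; Tll1 was at 0.36 and not called. Bmp1 no longer passed without M1, M3 or M4 (edgeR adjusted p from 0.0507 to 0.114). Of 10 tested ADAM genes, membrane-bound relatives of the ADAMTS, 3 were called lower and 0 higher: Adam19 (-1.52), Adam15 (-1.63) and Adam10 (-0.24), each lower in 5 of 5 embryos, with 0 higher at an unadjusted p under 0.05 or with DESeq2; the last was not called without M3, M4 or M5 (edgeR adjusted p from 0.0646 to 0.13). Adam19 overlaps a microRNA gene, Mir8100. Of 7 cathepsins, Ctsl was called higher (0.71) and Ctss, a cathepsin of macrophages, lower (-1.31), while Ctsd was at 0.25 (edgeR adjusted p = 0.0502, higher in 5 of 5 embryos) and passed without M2 (edgeR adjusted p = 0.0203) or without the replicate block (0.0359).

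Substrates of the members were read in 4 lists, beside 11.1% of all tested genes called higher and 11.9% called lower. Of 16 tested basement membrane genes 8 were called lower and 0 higher, with a median log2 fold change of -0.36 against 0.02 over all tested genes. Lama4 (-1.28), Col4a1 (-1.42) and Nid1 (-1.20) had the smallest p, and Col4a1 overlaps Col4a2 on the other strand. Of 8 fibrillar collagen and fibronectin genes 4 were called lower and 0 higher, led by Col5a1 (-0.62), Col1a1 (-0.48) and Fn1 (-0.27). The remaining call was Col2a1, at 27.0 ± 15.8 normalized counts with vehicle and 9.99 ± 4.68 with GPI (SD, n = 5). Col2a1 passed the filter through its vehicle counts, so that its call is no support for a difference. Without M4 there were 2 calls, and Fn1 was not called without M4 or M5 (edgeR adjusted p of 0.067 and 0.0643). At an unadjusted p under 0.05, and with DESeq2, 0 genes of either list were higher.

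Versican, a substrate of Adamts1, Adamts4, Adamts5 and Adamts9, fell. Vcan had 20562, 17381, 18770.0, 15895 and 15830.2 normalized counts with vehicle in M1 to M5 and 10337, 15528, 12982, 12221 and 14882 with GPI. On the log2 scale it changed by -0.43 (standard error 0.11, edgeR adjusted p = 0.00952, lower in 5 of 5 embryos). The groups did not overlap, though the GPI value of M2 came close to the vehicle values of M4 and M5. Of the other 4 tested hyalectan genes and partners, Bcan was called higher (1.01, edgeR adjusted p = 0.0242, higher in 5 of 5 embryos), but not without M3, M4 or M5 (edgeR adjusted p from 0.0714 to 0.109) or without the block (0.14). Hapln1, which links versican to hyaluronan, was at -0.38 (edgeR adjusted p = 0.0672, lower in 4 of 5 embryos) and passed without M1 (edgeR adjusted p = 0.00202), with total counts only (0.0477) and with no filter on low counts (0.0326). Among 8 genes of microfibrils and other ADAMTS partners, 2 were called in each direction, and without M5 4 were called higher. Ltbp1, a binding partner of Adamtsl2, was at 0.86, Ltbp4 at -1.20, and Comp, a substrate of Adamts7 and Adamts12, at 3.51 from 6.16 ± 5.23 to 70.3 ± 36.6 normalized counts. Comp passed the filter through its GPI counts, and Vwf, also called lower, through its vehicle counts. These 2 calls are therefore no support for a difference.

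**Figure D4:**
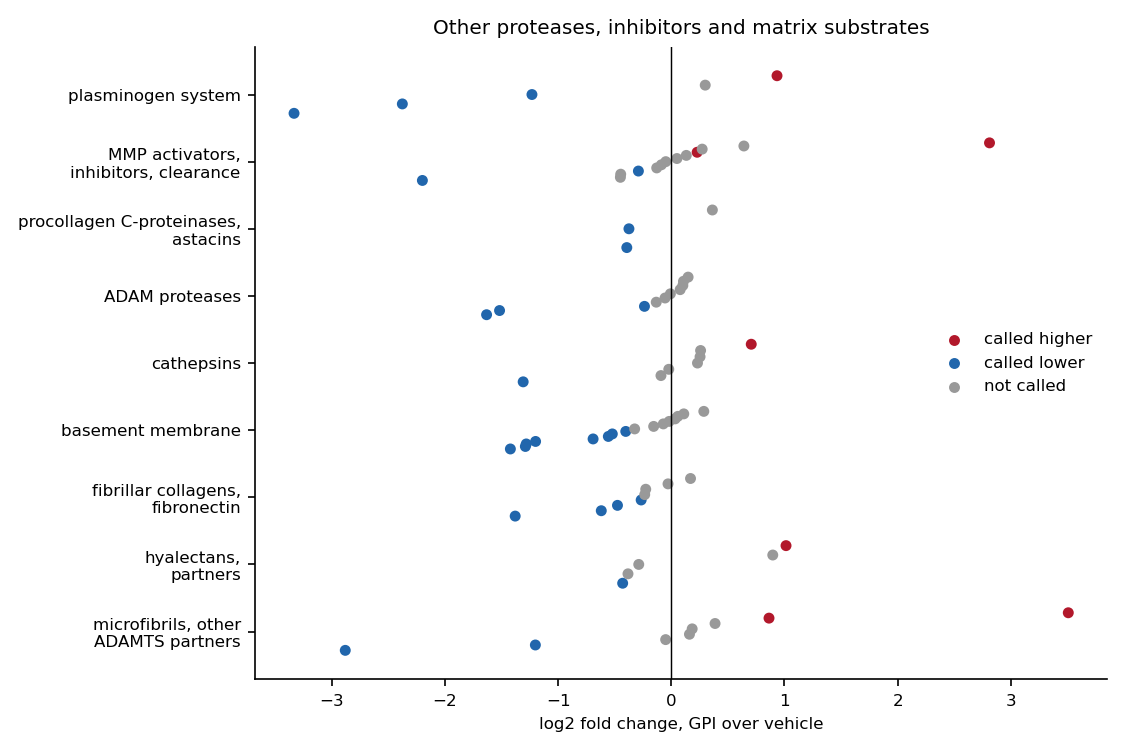
Log2 fold change of GPI over vehicle (x axis) of the tested genes in 9 lists of other proteases, inhibitors and matrix substrates, 1 point per gene, with colours for genes called at an FDR of 0.05. The plasminogen genes reach from -3.33 for Plaur, which passed the filter through its vehicle counts, to 0.93 for Serpine2. No basement membrane gene was called higher.

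Markers of several cell types moved in the same libraries, and no listed marker found in the table was at 0 in all of them. Their counts stand beside 11.1% of all tested genes called higher and 11.9% called lower. Endothelial markers were called lower in 10 of 10 tested genes, and their summed normalized counts were 7326, 7909, 7190.2, 8329 and 7517 with vehicle in M1 to M5 and 936, 1123, 764, 612 and 815 with GPI; Cdh5 was the most abundant. Of 9 tested macrophage markers 8 were called lower, led in abundance by Lyz2, with sums of 947 ± 131 and 377 ± 110.2 (SD, n = 5). Neutrophil markers were called lower in 4 of 4 tested genes, with S100a9 the most abundant and sums of 597, 823, 976, 248 and 1697 with vehicle and 13.4, 171, 55.2, 7.40 and 28.3 with GPI. Each of the 4 passed the filter through its vehicle counts, so that these calls are no support for a difference.

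Mural and smooth muscle markers were called lower in 3 of 6 tested genes (sums 2947 ± 402 and 1974 ± 204). Acta2, the most abundant, was not among them (log2 fold change -0.12), and without it the sums were 1816 ± 275 and 926 ± 93.3. Megakaryocyte markers were called lower in 1 of 2 tested genes, at sums of 72.4 ± 51.7 and 21.2 ± 6.51, with Pf4 the most abundant and the one called. With DESeq2 or no filter on low counts, which test more of the listed genes, 2 were called lower. Germ cell markers were called lower in 5 of 6 (sums 2224 ± 617 and 876 ± 125). Kit, the most abundant, was the marker not called (log2 fold change -0.16, edgeR adjusted p = 0.243, lower in 4 of 5 embryos), and without it the sums were 1367 ± 574 and 105 ± 58.2. In the other direction, Sertoli cell markers were called higher in 8 of 10 genes (sums 4709 ± 949.5 and 7571 ± 2071, Aard the most abundant), and were present in every library, as the label of testis asks. In M1 the Sertoli sum went from 3430 with vehicle to 4283 with GPI, within the vehicle range, which reached 5653. The other GPI sums of this list ran from 7717 to 10031. Fetal Leydig cell markers were called higher in 5 of 5 (sums 3312 ± 1646 and 13861 ± 3666, Hsd3b1 the most abundant).

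Interstitial markers were mixed, with 2 of 8 called higher and 4 lower, with sums of 17269 ± 1019 and 17248 ± 1331. Pdgfra, the most abundant, was called higher, and without it the sums were 11711 ± 948 and 10269.6 ± 909; without M2 2 were called lower and without M3 or M4 1. Of 4 coelomic markers 0 were called with edgeR or DESeq2 (sums 559 ± 119 and 604 ± 58.8, Upk3b the most abundant, and 153 ± 83.7 and 131 ± 24.96 without it), and at an unadjusted p under 0.05 there were 0. Mesonephric markers, called lower in 1 of 2 tested genes and led by Emx2, had sums of 1247 ± 323 and 753 ± 171. Calls of several markers are no support for a difference, since these passed the filter through their vehicle counts. Among them were S100a8, S100a9, Ngp, Ltf, C1qa, Cx3cr1, Aif1, Pf4, Sall4, Dppa3 and Dazl. The part of any of these cell types in the changes of Adamts4, Adamts1, Timp3, Mmp2, Mmp11 or other members was not tested.

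**Figure D5:**
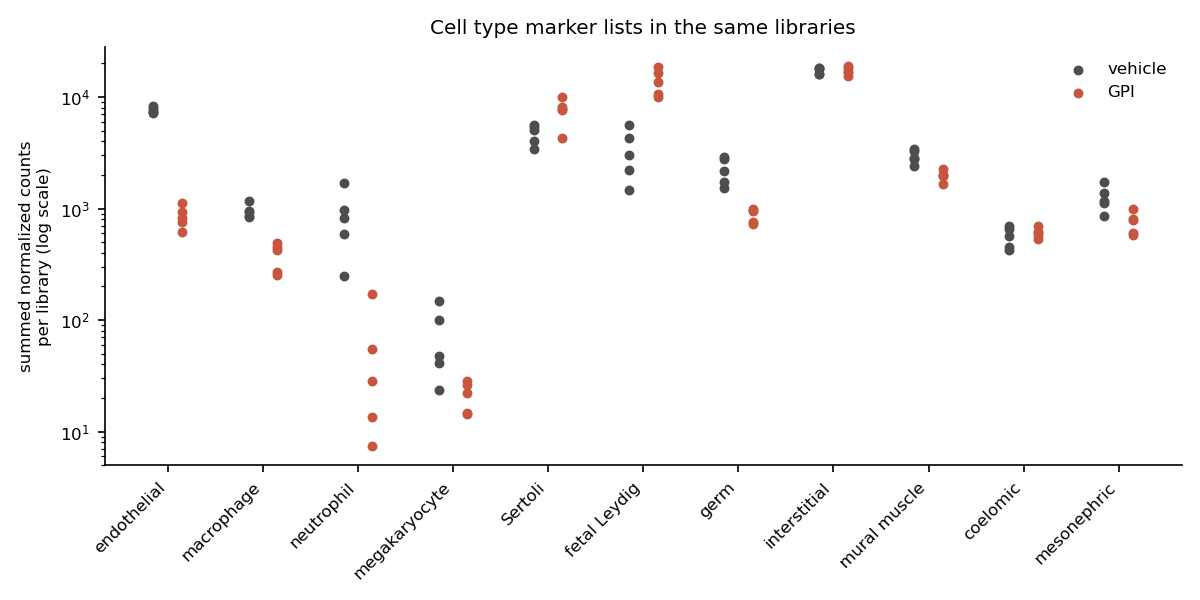
Summed normalized counts (y axis, log scale) of 11 lists of cell type markers, 1 point per library, 5 libraries per treatment. Endothelial sums with GPI lie between 612 and 1123, far below the vehicle libraries, and interstitial sums of the treatments overlap.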

How the data were processed

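RNA was sequenced from 10 gonads of 5 embryos. The authors aligned reads with STAR to mm10 and counted them per gene with featureCounts (Subread 1.5.0-p1), without regard to strand; the deposited values are raw counts for 24470 gene rows. Total counts ran from 10203679 to 15635322 per library. Groups come from the labels, and the pairing of gonads by embryo from the embryo named there for each library. Pairing was checked on log counts after removal of the treatment means: the mean correlation was 0.06 within an embryo and -0.015 between embryos. Within an embryo it ran from -0.04 to 0.155. These values are low, so that the check cannot establish the pairing, which rests on the labels.

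Counts were scaled by TMM and filtered with filterByExpr (minimum count 10, minimum total 15). The test was edgeR 4.0.16 (R 4.3.3), quasi-likelihood, with embryo as a block and Benjamini-Hochberg adjustment over all tested genes at 0.05; normalized counts are TMM-scaled. Standard errors were taken from the fold change and the root of its F statistic. Level per length uses GENCODE M21 transcripts. Tables and plots were made with Python 3.11.15 (matplotlib 3.10.9, pandas 2.3.3, numpy 2.4.6).

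Alternatives were DESeq2 size factors, total counts, no low-count filter, DESeq2 1.42.0, no replicate block, each embryo left out and, for levels, the mean transcript length. Those for the pathway and cell type lists for sums without a list's most abundant gene and for the Timp to Mmp ratio were chosen after seeing the data. The members and lists were chosen with earlier results of these data known. Values per sample are given for called members with a mean of at least 50 normalized counts, each Timp, and the 2 members highest per length of Mmp, Adamts and Adamtsl; of pathway lists, the 3 genes with the smallest p are named, and of cell type lists the counts, sums and most abundant gene. The test was also tried on simulated data.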

Additional observations from a re-analysis of the deposited data

How the results depend on the processing

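Of the 10 members called, 8 were called under all 10 alternatives. The number called higher ran from 1 to 5 when an embryo was left out, and was 3 without the replicate block and with other scaling, with no filter and with DESeq2. The number called lower ran from 7 to 8 with an embryo left out and was 8 without the block, 8 with DESeq2 size factors or no filter, and 9 with total counts or DESeq2. Mmp8, which the main filter set aside, was among those called without M3, with no filter and with DESeq2, and Mmp9 among those called without M4. Over all genes, 2311 to 3080 were called with an embryo left out and 3108 without the block, against 3198. The log2 fold change of Adamtsl4, which was not called, ran from -0.138 to 0.251 with an embryo left out, and was -0.11 without replicate 1 and -0.138 without replicate 4; the cause was not tested. In all, 7 tested members turned sign under some alternative, 0 of them called: besides Adamtsl4, these were Adamts14 (-0.46 to 0.10 with an embryo left out), Adamts15 (-1.002 to 0.20), Adamts3 (-0.18 to 0.06), Adamtsl3 (-0.63 to 0.15), Mmp17 (-0.65 to 0.02) and Mmp28 (-0.29 to 0.51, and also with DESeq2 or no filter). The median over all genes went from 0.02 to -0.03 (log2) when scaled by total counts. Depth limits 16 of the 17 members set aside, which had under 25 counts in every library.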
